A study of Mus musculus with 4 samples.

Results

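The genes described here are *Hmgcs1*, *Idi1*, *Fdft1*, *Sqle*, *Lss*, *Cyp51*, *Dhcr7* and *Insig1*, 8 genes of cholesterol synthesis and of the sensing that sets synthesis and uptake, out of 23732 genes with an ID in the counts. They were chosen by name, and the rule uses no measured difference. Per gene, the RefSeq transcript ID with the most reads over all libraries was used. RNA was sequenced from immortalized mouse dermal fibroblasts (imMDFs) in 4 libraries, 2 of *Tmpo* KO and 2 of *Tmpo* WT. *Tmpo* KO cells, labelled Lap2alpha -/-, lack LAP2alpha, a lamin-binding protein of the nuclear interior made from the *Tmpo* gene, and *Tmpo* WT cells are labelled Lap2alpha +/+. Each genotype was sampled once at passage 42 and once at passage 34, both genotypes were grown in the same serum-containing medium, and neither was treated. Only 1 line per genotype is named, so effects of the knockout and of the line cannot be told apart. Nothing says that the replicates were separate cultures beyond their passage, so p-values cover no more than the spread seen among the 4 libraries, whose source may be technical. The comparisons ask whether expression of these genes differed between *Tmpo* KO and WT cells and between the passages.

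Cholesterol is built from acetyl-CoA through mevalonate, isoprenoids and squalene, and the ring of squalene is then closed and trimmed to cholesterol. When sterols in the endoplasmic reticulum run low, SCAP carries the SREBP transcription factors to the Golgi, where they are cut and released to switch on genes of cholesterol synthesis and uptake. INSIG proteins hold SCAP back when sterols are plentiful, and *Insig1* is itself an SREBP target. Fibroblasts in culture both make cholesterol and take it up from serum lipoproteins. None of the 8 genes encodes a receptor or carrier of uptake, and such genes were read as a separate list.

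In the RefSeq promoter table of GRCm38.p6, 6 of the 8 genes had entries (8 promoters), and *Sqle* and *Fdft1* are named only. The 250 bases before each start were searched on both strands for TCACNCCAC, a form of the sterol regulatory element that SREBPs bind, for its classical form, in which A precedes these letters and N is C, so that every match is also a match of the looser form, for CCAAT, the box bound by NF-Y, and for GGGCGG, the box bound by Sp1. These windows are shown because the genes are known as common targets of the same pathway, with *Hmgcs1* for the sterol element, *Lss* for the largest measured genotype difference among the 8 genes, and *Cyp51* and *Insig1* for the largest passage differences. Capitals mark the match, read on the strand of the gene, and ATTGG is CCAAT on the opposite strand.
Hmgcs1, chr13:119690189-119690247, plus strand: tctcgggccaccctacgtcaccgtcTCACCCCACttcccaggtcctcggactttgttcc
Lss, chr10:76531518-76531572, plus strand: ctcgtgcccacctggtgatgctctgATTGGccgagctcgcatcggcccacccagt
Cyp51, chr5:4104698-4104751, minus strand: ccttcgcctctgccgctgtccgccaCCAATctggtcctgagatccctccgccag
Insig1, chr5:28071171-28071225, plus strand: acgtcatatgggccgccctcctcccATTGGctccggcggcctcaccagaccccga
The looser sterol element was found in *Hmgcs1* only, 137 bases before the start, and in 1.05% of all 32851 promoters. The classical form was found in none of the 8 promoters and in 0.0731% of all promoters. CCAAT was present for all 6 genes (6 of 8 promoters, against 33.8% of all promoters) and GGGCGG for all 6 genes (7 of 8 promoters, against 32.7%). A match is a description of letters in this window and was not tied to binding.

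The libraries held between 12168433 and 19603812 reads given to transcripts. *Tmpo*, the targeted gene, has 6 IDs in the counts. Its leading ID, NM_011605, was read at 0.310 and 0.368 CPM in *Tmpo* KO cells and 84.2 and 75.7 CPM in *Tmpo* WT cells (passages 42 and 34). The log2 fold change of this ID was -7.86 (SE 0.34). Its other IDs are not given here, so these values do not stand for all RNA of the gene. Of 10 fibroblast markers, 9 had at least 1 CPM in every library, and *Pdgfrb* was listed at 0. Their sum was 16603 and 12043 CPM in KO and 13220 and 14140 CPM in WT at passages 42 and 34. Among them *Thy1* was higher in KO, with 768 and 1286 CPM, against 274 and 314 CPM in WT. Its log2 fold change was 1.80 (SE 0.27, adjusted p = 0.00469 in edgeR's test), and no other tested fibroblast marker passed. The summed levels of keratinocyte and other epithelial markers (16.1 to 21.9 CPM in KO, 18.9 to 20.6 in WT, *Trp63* at 0) and of endothelial markers (7.24 to 9.33 CPM in KO, 6.88 to 7.25 in WT) were low. Leukocyte markers summed to 12.2 to 15.7 CPM in KO and 8.84 to 9.48 in WT, with *Cd68* at 0, adipocyte markers to 7.86 to 8.47 CPM in KO and 7.38 to 12.2 in WT, and proliferation markers to 3569 to 4144 CPM in KO and 4394 to 4486 in WT. The leukocyte sum was thus higher, and the proliferation sum lower, in both KO libraries, and the part of either in the values below was not tested. *Pdgfrb*, *Trp63* and *Cd68* have 2, 8 and 2 IDs in the counts. Reads matching several IDs were set aside, so a count of 0 for these genes does not show absence.

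*Hmgcs1*, the synthase that makes HMG-CoA for the mevalonate pathway, was listed at 0 reads in all 4 libraries under its ID, NM_145942. A count of 0 allows up to 3 reads, or 0.153 and 0.190 CPM in KO and 0.191 and 0.247 CPM in WT at passages 42 and 34, counting error only. The counts set aside every read that matches more than 1 ID or position. RefSeq lists 2 IDs for this gene, of which only 1 is in the counts. The same holds for *Fdft1* (1 of 2) and *Dhcr7* (1 of 7), which had reads. The cause of the 0 was not tested, so the gene is taken as not measured, and no fold is given. The other 7 genes had between 435 and 6899 reads per library and 1 ID each in the counts, and all 7 entered the test.

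Per kilobase of transcript, which allows levels to be compared between genes, *Sqle* was highest with 135 ± 6.94 CPM per kb (SD, n = 4 libraries), followed by *Fdft1* (88.9 ± 8.61), *Cyp51* (83.4 ± 17.95), *Idi1* (79.4 ± 10.3), *Insig1* (63.6 ± 13.0), *Lss* (26.8 ± 4.59) and *Dhcr7* (17.6 ± 3.66). The ranges over the libraries did not overlap between *Sqle* and *Fdft1* or between *Insig1* and *Lss*, and overlapped for every other pair of neighbours in this order. By level per kb, *Sqle* thus stood on top, 4 genes in the middle, and *Lss* and *Dhcr7* below. The length used was that of the longest coding transcript in the annotation of NCBIM37, which need not match the counted ID.

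**Figure D1:**
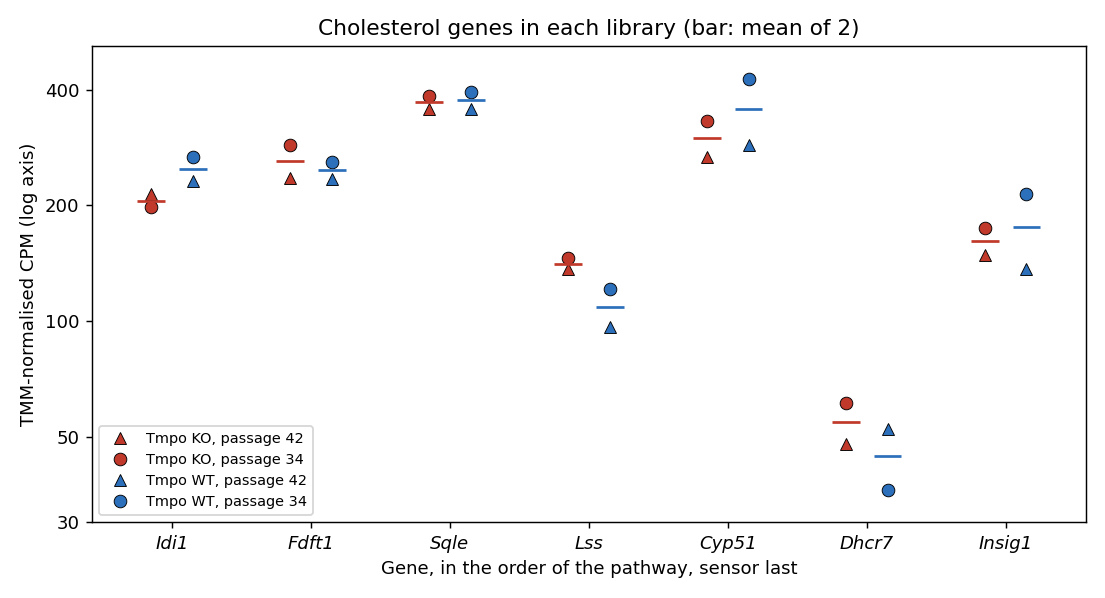
TMM-normalised CPM (log axis) of the 7 measured genes in each library, *Tmpo* KO (red) left of *Tmpo* WT (blue), triangles for passage 42 and circles for passage 34, bars for the mean of 2 libraries. Both KO libraries lie above both WT libraries for *Lss* and below them for *Idi1*, and for the other 5 genes the genotypes overlap. Of all tested transcripts, 41.9% had no overlap of the genotypes in either direction.

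None of the 7 genes differed between *Tmpo* KO and WT cells by edgeR's quasi-likelihood test with Benjamini-Hochberg adjustment, where 2.75% of all 13855 tested transcripts did (381, with 209 or 1.51% higher and 172 or 1.24% lower in KO). None of the 7 had an unadjusted p under 0.05, against 12.8% of tested transcripts, and none passed with DESeq2. That background count ranged from 109 without WT replicate 2 and 175 without WT replicate 1 to 842 without KO replicate 1 and 1291 without KO replicate 2. Replicate 1 is passage 34 and replicate 2 passage 42 in both genotypes, and with the passage as a replicate block 1092 transcripts passed (7.88%), again none of the 7 genes. The log2 fold changes of the 7 genes had a median of -0.02, against 0.02 over all tested transcripts, and 3 were above and 4 below 0. Without WT replicate 1, only 1 of the 7 was below 0. With bulk RNA, a lower level in every cell and fewer expressing cells cannot be told apart.

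*Idi1* (NM_145360, NCBIM37 chr13:8884852-8891641) encodes the isomerase that interconverts the basic isoprenoid units. It was read at 214 and 198 CPM in KO cells, against 231 and 267 CPM in WT cells, at passages 42 and 34. Both KO libraries were lower than both WT libraries, as were 19.9% of all tested transcripts. The means were 206 ± 11.6 and 249 ± 25.4 CPM (SD, n = 2 each), the log2 fold change was -0.27 (SE 0.20, 95% interval -0.71 to 0.16), and the adjusted p of 0.672 in edgeR's test did not pass.

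*Fdft1* (NM_010191, chr14:63763990-63796630) encodes squalene synthase, the first enzyme committed to sterols. Its level was 236 and 287 CPM in KO cells, against 234 and 260 CPM in WT cells. The genotypes overlapped, and the log2 fold change was 0.08 (SE 0.20, 95% interval -0.37 to 0.53, adjusted p = 0.938). *Fdft1* overlaps *Ctsb*, a lysosomal protease gene on the other strand, which had 607 and 773 CPM in KO and 521 and 622 CPM in WT. Whether the counting used strand is not stated in the sources. Without strand, reads matching exons of both genes would be set aside as ambiguous, so some reads of *Fdft1* may be missing.

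*Sqle* (NM_009270, chr15:59146632-59162747) encodes squalene epoxidase, a rate-limiting enzyme of the sterol part of the pathway. It was read at 357 and 385 CPM in KO cells, against 357 and 394 CPM in WT cells. Its values were nearly equal between genotypes at each passage, with a log2 fold change of -0.02 (SE 0.20, 95% interval -0.46 to 0.42, adjusted p = 0.991). On the linear scale, that interval spans 0.729-fold to 1.34-fold.

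*Lss* (NM_146006, chr10:75994333-76019883) encodes lanosterol synthase, which closes the sterol rings. The KO cells had 137 and 146 CPM of it, against 96.7 and 122 CPM in WT cells. Both KO libraries were higher than both WT libraries, as were 21.9% of all tested transcripts. The log2 fold change of 0.37 (SE 0.20, 95% interval -0.07 to 0.82) was the largest of the 7 in size and did not pass (adjusted p = 0.518). *Lss* overlaps *4930483K19Rik* on the other strand.

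*Cyp51* (NM_020010, chr5:4081145-4104746) encodes the demethylase that acts on lanosterol. It was read at 267 and 332 CPM in KO cells, against 287 and 426 CPM in WT cells. The genotypes overlapped, with the highest value in WT at passage 34, and the log2 fold change was -0.25 (SE 0.24, 95% interval -0.77 to 0.27, adjusted p = 0.778). *Dhcr7* (NM_007856, chr7:151009050-151034315) encodes a reductase of the last step to cholesterol. Its level was 48.0 and 61.3 CPM in KO cells, against 52.5 and 36.5 CPM in WT cells. The lowest value, 435 reads, was that of WT at passage 34, and the log2 fold change of 0.29 (SE 0.25, 95% interval -0.25 to 0.84, adjusted p = 0.738) did not pass.

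*Insig1* (NM_153526, chr5:28397952-28405201) encodes the sterol-regulated retention protein of SCAP. It was read at 148 and 175 CPM in KO cells, against 137 and 214 CPM in WT cells. The WT libraries were the highest and the lowest of the 4, and the log2 fold change was -0.12 (SE 0.24, 95% interval -0.64 to 0.41, adjusted p = 0.922). Summed over the 7 genes, the level was 1408 and 1582 CPM in KO and 1395 and 1719 CPM in WT, or 1495 ± 124 and 1557 ± 229 CPM (SD, n = 2 each). Each 95% interval of the 7 genes lay within 2-fold in either direction. These intervals cover no more than the spread seen among the 4 libraries, so they do not exclude a larger difference in other cultures.

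**Figure D2:**
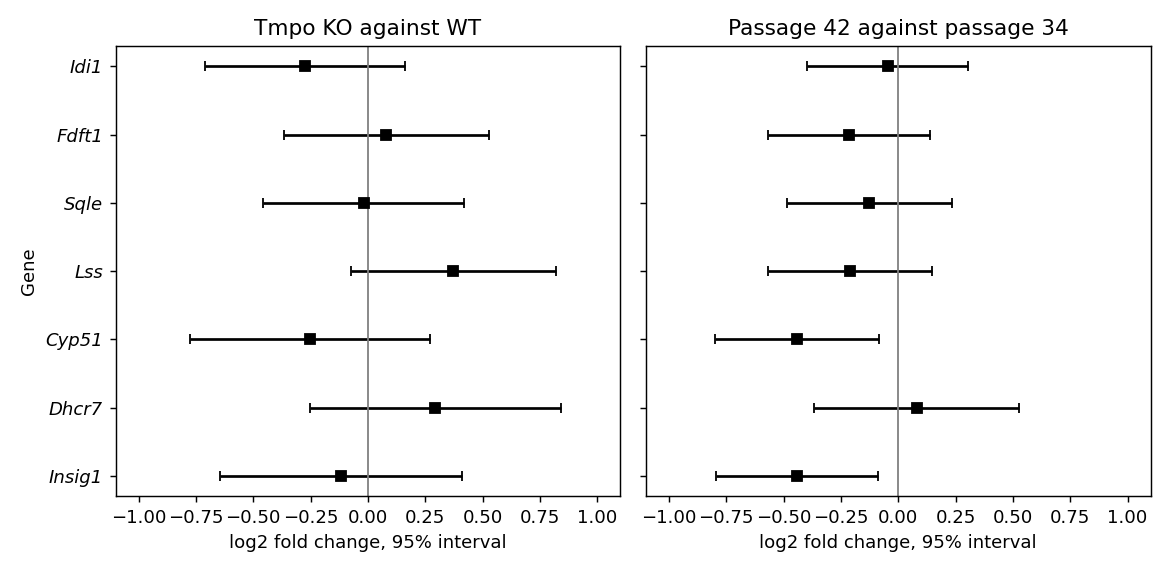
log2 fold changes with 95% intervals from edgeR's quasi-likelihood fits, *Tmpo* KO against WT on the left and passage 42 against passage 34 on the right, for the 7 measured genes. All intervals cross 0 on the left, and those of *Cyp51* and *Insig1* lie below 0 on the right, where neither gene passed after adjustment over all transcripts.

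Between passages, with genotype held constant, 6 of the 7 genes were below 0 in the comparison of passage 42 with passage 34, and none passed the adjusted test, where 2.31% of tested transcripts did (320, with 245 or 1.77% higher and 75 or 0.541% lower at passage 42). Of all tested transcripts, 49% were below 0. The passage is also the replicate number in both genotypes, so effects of passage and of replicate cannot be told apart. The median log2 fold change of the 7 genes was -0.21, against 0.01 over all tested transcripts, and 2 of the 7 had an unadjusted p under 0.05, against 11.6%, and none passed with DESeq2. The background count was 0 with all 4 libraries when genotype was not held constant, and 0 without KO replicate 1, 0 without WT replicate 1, 2 without KO replicate 2 and 8 without WT replicate 2 in fits that could not hold it constant either. The number of genes below 0 was 6 of 7 in each of these 5 fits except without KO replicate 2, where it was 5.

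*Cyp51* averaged 277 ± 14.2 CPM at passage 42 and 379 ± 66.5 CPM at passage 34 (SD, n = 2 each), with both later libraries below both earlier ones. Its log2 fold change was -0.44 (SE 0.18, 95% interval -0.80 to -0.08), and the adjusted p of 0.242 in edgeR's test did not pass. *Insig1* averaged 143 ± 8.29 CPM at passage 42 and 194 ± 27.7 CPM at passage 34, again without overlap. Its log2 fold change was also -0.44 (SE 0.18, 95% interval -0.80 to -0.09, adjusted p = 0.234). An enzyme of the pathway and the retention protein of SCAP thus had differences of the same size.

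*Fdft1* averaged 235 ± 1.44 CPM at passage 42 and 273 ± 18.7 CPM at passage 34, and *Sqle* 357 ± 0.0382 and 389 ± 6.70 CPM. Their log2 fold changes were -0.22 (SE 0.18, adjusted p = 0.754) and -0.13 (SE 0.18, adjusted p = 0.884). Both squalene enzymes were without overlap between the passages, so that 4 of the 7 genes were lower in both passage 42 libraries, against 15.8% of tested transcripts, and none was higher in both, against 18%. For *Lss*, with 117 ± 28.3 CPM at passage 42 and 134 ± 17.0 CPM at passage 34 (log2 fold change -0.21, SE 0.18), and *Idi1*, with 223 ± 12.0 and 232 ± 49.0 CPM (log2 fold change -0.05, SE 0.18), the passages overlapped. *Dhcr7* was the only one of the 7 above 0, with 50.2 ± 3.15 CPM at passage 42 and 48.9 ± 17.5 CPM at passage 34 (log2 fold change 0.08, SE 0.23, 95% interval -0.37 to 0.53).

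Within each genotype, the log2 difference of passage 42 from passage 34 was -0.31 in KO and -0.57 in WT for *Cyp51*, and -0.24 in KO and -0.65 in WT for *Insig1*. For *Lss* it was -0.09 in KO and -0.33 in WT, while for *Fdft1* it was -0.28 in KO and -0.15 in WT. *Dhcr7* had opposite signs, with -0.35 in KO and 0.52 in WT, and so had *Idi1*, with 0.12 in KO and -0.21 in WT. With 1 library per genotype and passage, the difference of these values between genotypes has no test.

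The same 4 values can be read as a genotype difference at each passage. *Lss* was higher in KO at passage 42 (by 0.50 on the log2 scale) and at passage 34 (0.26). *Idi1* had differences of -0.11 at passage 42 and -0.43 at passage 34, and *Cyp51* of -0.10 and -0.36, so that both stood nearer to WT at the later passage. *Fdft1* had differences of 0.01 and 0.14. The widest gap between the passages was that of *Dhcr7*, which had -0.13 at passage 42 and 0.75 at passage 34.

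**Figure D3:**
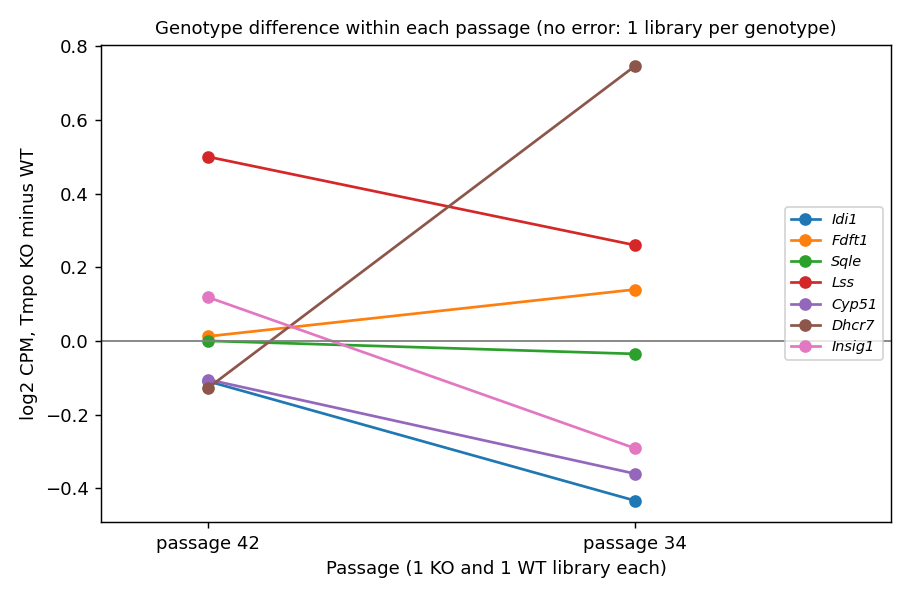
log2 CPM of *Tmpo* KO minus *Tmpo* WT within passage 42 (left) and passage 34 (right) for the 7 measured genes, 1 library per genotype and passage, so no error can be drawn. *Lss* and *Fdft1* lie above 0 and *Idi1* and *Cyp51* below 0 at both passages, while *Dhcr7*, *Insig1* and *Sqle* change sign.

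Among 14 other enzymes of cholesterol synthesis, 13 were tested. None passed between genotypes, with a median log2 fold change of 0.05. *Lbr*, a sterol reductase that is also a lamin-binding protein of the inner nuclear membrane, had a log2 fold change of 0.18 (SE 0.19, adjusted p = 0.813). *Hsd17b7*, a ketosteroid reductase of the pathway, had the smallest p of the list, with 65.7 and 65.3 CPM in KO and 42.5 and 48.5 CPM in WT (log2 fold change 0.53, SE 0.21, adjusted p = 0.298).

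Between passages, 12 of these 13 enzymes were below 0, with a median log2 fold change of -0.28, 5 of the 13 had an unadjusted p under 0.05, against 11.6% of tested transcripts, and 1, *Nsdhl*, passed as lower, against 0.541%. *Nsdhl*, a sterol dehydrogenase of the demethylation steps, had 59.8 CPM in KO and 55.2 CPM in WT at passage 42, against 112 CPM in KO and 82.7 CPM in WT at passage 34. Its log2 fold change was -0.74 (SE 0.20, adjusted p = 0.0185), and it fell in both genotypes. The call was lost with DESeq2 (adjusted p = 0.152), edgeR's likelihood ratio test (0.0725), no filter on low counts (0.0930), no genotype block (0.967) and with any of the 4 libraries left out. Its log2 fold change stayed between -0.76 and -0.72 with all libraries, and between -0.96 and -0.53 with a library left out. Both passage 42 libraries were below both passage 34 libraries for 6 of the 13, against 15.8% of tested transcripts, and above them for 1, against 18%. The 7 genes and this list thus had medians of like sign between passages, described here without a test of the list.

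Of 17 genes of cholesterol uptake and intracellular transport, 13 were tested and none passed in either comparison, with median log2 fold changes of 0.14 for KO against WT and -0.02 for passage 42 against passage 34. *Npc2*, a lysosomal cholesterol carrier, had 310 and 227 CPM in KO and 126 and 195 CPM in WT. Both KO libraries were higher, as were 21.9% of tested transcripts. Its log2 fold change was 0.74 (SE 0.25), and its adjusted p of 0.196 in edgeR's test did not pass. It passed with no filter on low counts (adjusted p = 0.0497) and without KO replicate 1 (0.0112), and with the replicate block (0.000917, log2 fold change 0.76). *Lrp8*, a lipoprotein receptor, had 27.6 CPM in KO and 27.1 CPM in WT at passage 42, against 18.6 CPM in KO and 15.9 CPM in WT at passage 34 (log2 fold change 0.67, SE 0.27, adjusted p = 0.236). Another ID of *Lrp8* did not rise in reads, with 58 in KO and 38 in WT at passage 42, against 62 in KO and 47 in WT at passage 34.

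Of 15 genes of sterol sensing and SREBP activation, 11 were tested and none passed in either comparison, with medians of -0.05 between genotypes and -0.03 between passages. *Srebf2*, which encodes the SREBP that drives cholesterol synthesis, had 522 and 615 CPM in KO and 604 and 537 CPM in WT (log2 fold change -0.01, SE 0.21, adjusted p = 0.999). *Srebf1* had a log2 fold change of -0.10 (SE 0.19, adjusted p = 0.909) between genotypes and -0.02 (SE 0.18) between passages. *Scap* and *Insig2* had between 2 and 28 reads per library under their leading IDs and were not tested. They have 2 and 4 IDs in the counts, and reads matching several IDs were set aside, so these counts do not show a low level. *Tmem97* had the smallest p between passages (log2 fold change -0.30, SE 0.18, adjusted p = 0.557).

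Of 15 genes of cholesterol efflux, esterification and oxysterols, 11 were tested, none was higher and 2 were lower in KO, where 1.24% of tested transcripts were lower. *Pltp*, a plasma phospholipid transfer protein, had 3.83 and 2.46 CPM in KO and 14.8 and 16.5 CPM in WT (log2 fold change -2.31, SE 0.35, adjusted p = 0.00482). *Abcg1*, a sterol exporter, had 10.4 and 14.1 CPM in KO and 27.7 and 35.7 CPM in WT (log2 fold change -1.37, SE 0.28, adjusted p = 0.0253). *Pltp* and *Abcg1* were lower in each KO library than in each WT library, as were 19.9% of tested transcripts, while the median of the list was 0.20. *Cyp7b1*, an oxysterol hydroxylase, had 5.48 and 4.79 CPM in KO and 8.39 and 16.1 CPM in WT (log2 fold change -1.25, SE 0.38, adjusted p = 0.138), and passed with the replicate block (adjusted p = 0.0109), DESeq2 (0.0440), the likelihood ratio test (0.0475), no filter on low counts (0.0156) and without KO replicate 2 (0.00792). *Abca1*, another sterol exporter, had 144 and 76.3 CPM in KO and 95.8 and 99.5 CPM in WT (log2 fold change 0.18, SE 0.27, adjusted p = 0.885), and 0.43 (SE 0.19, adjusted p = 0.298) between passages. Of 17 SREBP targets of fatty acid synthesis, 14 were tested and 1 was lower in KO, against 1.24% of tested transcripts. It was *Gpam*, the first acyltransferase of glycerolipid synthesis, with 48.0 and 38.1 CPM in KO and 99.8 and 77.9 CPM in WT (log2 fold change -1.05, SE 0.23, adjusted p = 0.0335). The call of *Abcg1* was lost without WT replicate 1 (adjusted p = 0.283) and without WT replicate 2 (0.117), and that of *Gpam* likewise (0.0835 and 0.400). Their log2 fold changes in these fits were -1.16 and -1.54 for *Abcg1* and -1.20 and -0.86 for *Gpam*, and the lone WT library was assumed to vary like the KO libraries. *Pltp* overlaps *Ctsa* on the other strand, and *Abcg1* a small RNA gene on its own strand.

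Between passages, none of the 11 efflux genes and none of the 14 fatty acid genes passed, with medians of 0.09 and -0.06. *Me1*, which makes NADPH for lipid synthesis, had 3.72 CPM in KO and 4.71 CPM in WT at passage 42, against 11.05 CPM in KO and 6.38 CPM in WT at passage 34 (log2 fold change -1.02, SE 0.36, adjusted p = 0.123). Another ID of *Me1* had 15 reads in KO and 7 in WT at passage 42, against 1 in KO and 7 in WT at passage 34. Of 14 genes of the isoprenoid branch and of protein prenylation, 12 were tested and none passed in either comparison, with medians of 0.06 between genotypes and 0.03 between passages. *Fnta*, the shared subunit of the protein prenyltransferases, had 84.5 and 62.2 CPM in KO and 115 and 120 CPM in WT. Both KO libraries were lower, as were 19.9% of tested transcripts. Its log2 fold change was -0.68 (SE 0.22, adjusted p = 0.162 in edgeR's test). It passed without KO replicate 2 (adjusted p = 0.0131) and with the replicate block (0.00662, log2 fold change -0.70). *Pdss2*, of ubiquinone synthesis, had the smallest p of the list between passages (log2 fold change -0.72, SE 0.47, adjusted p = 0.607). Another ID of *Pdss2* had 1 read in KO and 5 in WT at passage 42, against 4 in KO and 0 in WT at passage 34.

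**Figure D4:**
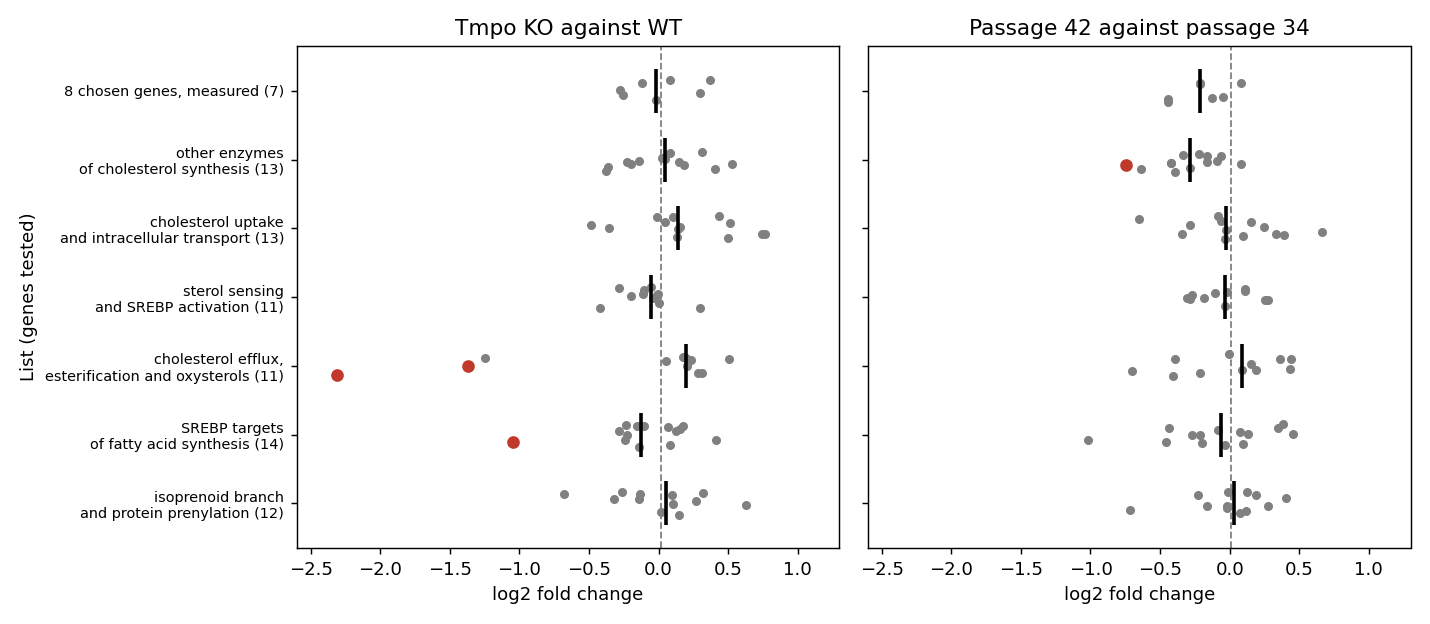
log2 fold changes of the 7 measured genes and of the tested genes of 6 other lists of the pathway, *Tmpo* KO against WT on the left and passage 42 against passage 34 on the right, with a black bar at each median, a dashed line at the median of all tested transcripts and red points for genes that passed edgeR's adjusted test. Red points are *Pltp*, *Abcg1* and *Gpam* on the left and *Nsdhl* on the right, and both synthesis groups have their median left of the dashed line on the right, at -0.21 and -0.28.

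The median profile of the 7 genes, as log2 CPM centred on the mean of the 4 libraries, was -0.07 and 0.08 in KO and -0.11 and 0.09 in WT at passages 42 and 34. Among 10062 tested transcripts of other genes with a mean of at least 50 reads, the nearest profiles by Euclidean distance over the 4 libraries were those of *Lmbr1l* (0.0120 on the log2 scale), *Nt5c3b* (0.0143), *Mrpl36* (0.0153), *Mcur1* (0.0166) and *Myg1* (0.0179). The 7 genes themselves were farther from their own median. *Sqle* was nearest, at a distance of 0.0587 with 25 transcripts of other genes closer, and *Dhcr7* farthest, at 0.602 with 6468 closer. Over 4 libraries, many genes share such a profile, and this likeness is a description.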

How the data were processed

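RNA depleted of rRNA was sequenced in 2 *Tmpo* KO and 2 *Tmpo* WT libraries. The deposited values are raw counts that the authors made with cutadapt, TopHat2 2.0.9 on mm9 and HTSeq over RefSeq transcripts, where reads matching several IDs were set aside as ambiguous (12.1% to 13.4% of reads) and reads in no feature were 49.9% to 56.5%. Other versions, and whether counting used strand, are not given in the sources used. Of 32757 IDs, 32308 were matched to a symbol through RefSeq (GRCm38.p6, names and promoters), and positions came from an annotation of NCBIM37.

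Transcripts that reached 1 CPM in each replicate of a genotype were tested with edgeR 4.0.16 in R 4.3.3 (TMM, quasi-likelihood test, calls at a Benjamini-Hochberg adjusted p below 0.05), for genotype without a block and for passage with genotype as a block. The labels pair the libraries by passage, which is also the replicate number, and the deviations of same-passage libraries from their genotype means had a correlation of 0.17 over transcripts, so a fit with the replicate block was run beside the genotype fit. CPM were computed over reads given to transcripts and scaled by TMM factors. Within-passage differences of log2 CPM (prior count 2) were not tested. An exact permutation test of 2 against 2 libraries gives no two-sided p under 0.333. At the lowest count of each of the 7 genes, 435 to 4698 reads, counting error was 4.79% to 1.46%. The fit was tested on simulated data. Tables were made with pandas 2.3.3, numpy 2.4.6 and Python 3.11.15, and plots with matplotlib 3.10.9.

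The genes and lists were chosen with earlier results of these data known. Named are the 8 genes, central other genes of the pathway, in each list the genes with the smallest p for genotype and for passage and any further one that passed, with or without the replicate block (within 3 and 2 per list), *Tmpo* and the 5 nearest profiles. Some genes under this rule are not reported here. *Ctsb*, *Ctsa* and *4930483K19Rik* are named for overlap, and *Thy1*, *Pdgfrb*, *Trp63* and *Cd68* as markers. Alternatives were RLE size factors, library totals, DESeq2 1.42.0, the likelihood ratio test, other filters, counts summed per symbol, a prior count of 0.5, other blocks and each library left out in turn.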

Additional observations from a re-analysis of the deposited data

Results flagged for a closer look

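The genotype difference had opposite signs at passages 42 and 34 for 3 of the 7 measured genes, with 1 library per genotype and passage, so the difference between the passages was not tested. The share of all tested transcripts with opposite signs was not computed, so this count cannot be called high or low. For *Dhcr7*, KO minus WT was -0.13 at passage 42 and 0.75 at passage 34 on the log2 CPM scale. For *Insig1* it was 0.12 at passage 42 and -0.29 at passage 34. For *Sqle* it was 0.00022 at passage 42 and -0.035 at passage 34, and with library totals alone it was -0.025 at passage 42 and 0.040 at passage 34. *Fdft1*, above 0 at both passages in the report, had opposite signs with library totals alone, at -0.012 and 0.21.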

How the results depend on the processing

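None of the 7 measured genes passed the adjusted test under any alternative run, in either comparison. The count of transcripts that differed between KO and WT, 381, was 638 with the likelihood ratio test, 740 with no filter on low counts (24857 tested), and 109 to 1291 with a library left out. With the replicate block, which pairs the libraries of a passage, 1092 transcripts passed. Among the named genes of the pathway it changed the calls of *Npc2*, *Fnta* and *Cyp7b1* and no other call. The passage count, 320, was 48 with DESeq2, 189 with the likelihood ratio test, 145 with at least 1 CPM in all 4 libraries, 0 with no genotype block (669 at an unadjusted p under 0.05, and 48 with DESeq2 and the block), and 0 to 8 with a library left out, fitted without that block. The cause was not tested.

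With library totals alone, the log2 fold change for KO against WT was 0.0093 for *Sqle* and 0.021 for *Srebf2*, and with no filter that for passage was 0.0058 for *Srebf1*, each opposite in sign to the value given. With a library left out, KO against WT ranged from -0.088 to 0.071 for *Sqle*, -0.51 to 0.075 for *Cyp51*, -0.40 to 0.26 for *Insig1*, -0.077 to 0.17 for *Fdft1*, -0.14 to 0.082 for *Srebf2* and -0.40 to 0.55 for *Abca1*. For passage 42 against passage 34 it ranged from -0.45 to 0.026 for *Lss*, -0.29 to 0.45 for *Dhcr7*, -0.27 to 0.16 for *Idi1*, -0.097 to 0.062 for *Srebf1*, -0.15 to 0.086 for *Srebf2* and -0.19 to 0.082 for *Lbr*. With 2 libraries a group, a gene that did not pass is not shown to be unchanged, and reads shared by several IDs of a gene were not counted.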
